A study of Mus musculus with 21 samples.

Results

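Collagen chain genes were taken as all genes whose symbol consists of Col, a type number, the letter a and a chain number (Col1a1 to Col28a1). The rule found 42 genes in each deposited table, of 42760 genes in the Peril and Fendrr tables and 40770 in the linc-Brn1b table. By the known structure of the proteins they were divided into 11 fibrillar chains, 6 type IV chains of the basement membrane and 25 other chains. The other chains comprised 9 fibril-associated chains (FACIT), 5 type VI chains, 4 transmembrane chains, 3 short chain network formers, 2 multiplexins, and Col7a1 and Col28a1. The symbols and their positions are those of mm9, and 2 members, Col4a5 and Col4a6, are on the X chromosome.

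RNA-Seq was performed on 21 libraries of knockout and wild-type mice of 3 strains, each lacking a long intergenic noncoding RNA (lincRNA). For the Peril strain (linc-Sox2 in the labels), whole brain at E18.5 was taken from 2 linc-Sox2+/+ and 2 linc-Sox2-/- embryos. For the Fendrr strain (linc-Foxf1a in the labels), lung at E14.5 was taken from 2 linc-Foxf1a+/+ and 2 linc-Foxf1a-/- embryos. For the linc-Brn1b strain, linc-Brn1b+/+ and linc-Brn1b-/- animals gave telencephalon at both E13.5 and E15.5, and their whole brain was taken at P7, with 2 libraries per group except 3 listed in the labels for the E15.5 knockout. For this group it is not known which libraries the deposited value pools. In each strain the lincRNA gene was replaced in embryonic stem cells of a 129 x C57BL/6 hybrid line by a lacZ cassette that carries a neomycin resistance gene, so all cells of a knockout carry the cassette from conception. The wild types were littermates without the cassette.

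Expression is given in FPKM (read pairs counted for a gene, divided by the length of its transcripts and by library size), with 1 deposited value per group that pools its libraries. The spread between libraries, the read depth and thus the precision of a value are unknown. The authors' own test columns were not used here and no test was run, so no difference below is set against replicate error. A gene was counted as past the fold where log2(FPKM + 1) differed by at least 0.585, which is 1.5-fold on this scale and understates the change of low genes. The share of all genes past the same limit is given beside each count.

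Collagens are trimers of chains whose helical part repeats a triplet of residues that begins with glycine. Fibrillar collagens (types I, II, III, V, XI, XXIV and XXVII) form the fibres of connective tissue and are made by fibroblasts, cartilage cells and related mesenchymal cells. Type IV chains build the sheet-like network under epithelia and around blood vessels, and in brain they are known from the vessels and the meninges. FACIT chains sit on fibrils, type VI chains form beaded filaments, and multiplexins (types XV and XVIII) lie at basement membranes.

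The classes differ in the coding sequence itself, which is shown here because it is the feature that separates fibrillar from type IV chains. In the GENCODE coding sequences on NCBIM37 (mm9), the longest uninterrupted run of triplets beginning with a glycine codon (GGN) had a median of 338 triplets among the 11 fibrillar chains, against 43.5 among the 6 type IV chains and 52 among the 25 others. Within the fibrillar class, Col24a1 and Col27a1 had runs of 216 and 217 triplets and the other 9 chains runs of 337 to 344. Type IV chains had 22 to 27 separate runs of 5 or more triplets, fibrillar chains 2 or 3. The first sequence below is part of the long run of Col1a1 (coding bases 2023 to 2202 of transcript Col1a1-001, gene at chr11:94797584-94813170). The second crosses an interruption in Col4a1 (coding bases 406 to 585 of transcript Col4a1-001, gene at chr8:11198423-11312826). GGN codons in frame are in capitals. They open every triplet of codons in Col1a1, and in Col4a1 10 codons separate one run from the next.
Col1a1: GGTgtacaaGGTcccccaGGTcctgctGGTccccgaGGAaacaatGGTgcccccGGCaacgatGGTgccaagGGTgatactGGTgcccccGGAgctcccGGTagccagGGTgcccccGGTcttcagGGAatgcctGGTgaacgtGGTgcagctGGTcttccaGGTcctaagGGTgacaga
Col4a1: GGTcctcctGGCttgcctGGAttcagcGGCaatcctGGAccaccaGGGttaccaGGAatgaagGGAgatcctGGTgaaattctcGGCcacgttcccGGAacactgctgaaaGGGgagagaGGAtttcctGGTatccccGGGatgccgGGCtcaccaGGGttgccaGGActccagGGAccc

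The type IV genes also stand apart by their position. They form 3 pairs whose members start next to each other on opposite strands. In GENCODE, Col4a1 (minus strand) and Col4a2 (plus strand) overlap at their starts on chromosome 8 by 22 bases, which belong to the first exon of both. Col4a4 (minus) and Col4a3 (plus) start with 71 intergenic bases between them on chromosome 1, and Col4a6 (minus) and Col4a5 (plus) with 1308 bases between them on the X chromosome. The first 2 intervals, on the plus strand of NCBIM37, are shown because the levels of each pair are compared below. In the positions deposited for the Peril and linc-Brn1b strains, Col4a1 ends at base 11312826 and Col4a2 starts at base 11312829. These spans do not overlap, unlike those of GENCODE.
Col4a1 and Col4a2, chr8:11312805-11312826: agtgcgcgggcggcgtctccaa
Col4a4 and Col4a3, chr1:82583425-82583495: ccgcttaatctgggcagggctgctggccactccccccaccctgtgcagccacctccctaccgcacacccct

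The tissues carried the markers of their labels. Sftpc, the surfactant gene of lung epithelium, was at 819 and 871 FPKM in wild-type and knockout lung and at most 0.247 FPKM in any brain group, and 4 of 4 lung mesenchyme genes (Foxf1a, Tbx4, Tbx5, Wnt2) were higher in both lung groups than in all 8 brain groups. All 5 neuronal genes (Tubb3, Stmn2, Snap25, Syt1, Dcx) were lower in lung than in every brain group. Among cartilage genes in lung, Matn1 and Comp were at or below 0.154 FPKM, while Hapln1 was at 12.4 and 13.48 and Sox9 at 13.4 and 13.6. The entry at the Fendrr locus (linc-Cox4nb-4) was at 38.4 FPKM in wild-type and 0.0450 in knockout lung, and linc-Brn1b was at 1.60, 2.498 and 0.799 FPKM in wild type at E13.5, E15.5 and P7 and listed at 0 in each knockout. For Peril, the overlapping entry linc-Atp11b-4 was at 0.0109 FPKM in wild type and 4.65 in the libraries labelled knockout. In the groups of the other strains this entry did not exceed 0.0446 FPKM. It begins outside the deleted part and does not check the labels, so the groups are called by their label here. The pooled values also differed in sex. Eif2s3y on the Y chromosome was at 13.51 and 16.5 FPKM in wild-type lung and wild-type E13.5 telencephalon against 0 and 0.00723 in the knockouts, and at 13.2, 9.94 and 11.7 in the groups labelled knockout at E18.5, E15.5 and P7 against at most 0.0184 in their wild types. Xist, the X-linked gene among the sex markers, was at 92.5 FPKM in wild type and 47.9 in the group labelled knockout at E18.5. In lung it was at 52.0 in wild type and 105.7 in knockout. The E18.5 and lung groups with Y-linked genes thus also held Xist and were not of males alone. In all 5 comparisons genotype and this difference in sex cannot be told apart.

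In the embryonic lung, fibrillar chains reached the highest levels of any collagen. Of the 42 genes, 24 reached 10 FPKM in at least 1 group, 23 of them in lung and 11 in brain. Fibrillar chains made up 59.3% of the summed collagen FPKM in wild-type and 64.9% in knockout lung, type IV chains 12.996% and 10.3%, and other chains 27.7% and 24.7%. The summed level was 2485 and 2653 FPKM in lung. In brain it lay between 91.4 FPKM (E15.5 knockout) and 258 FPKM (E13.5 wild type). At the low end, 5 collagen genes (Col6a4, Col7a1, Col10a1, Col20a1, Col28a1) stayed below 1 FPKM in every group.

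**Figure D1:**
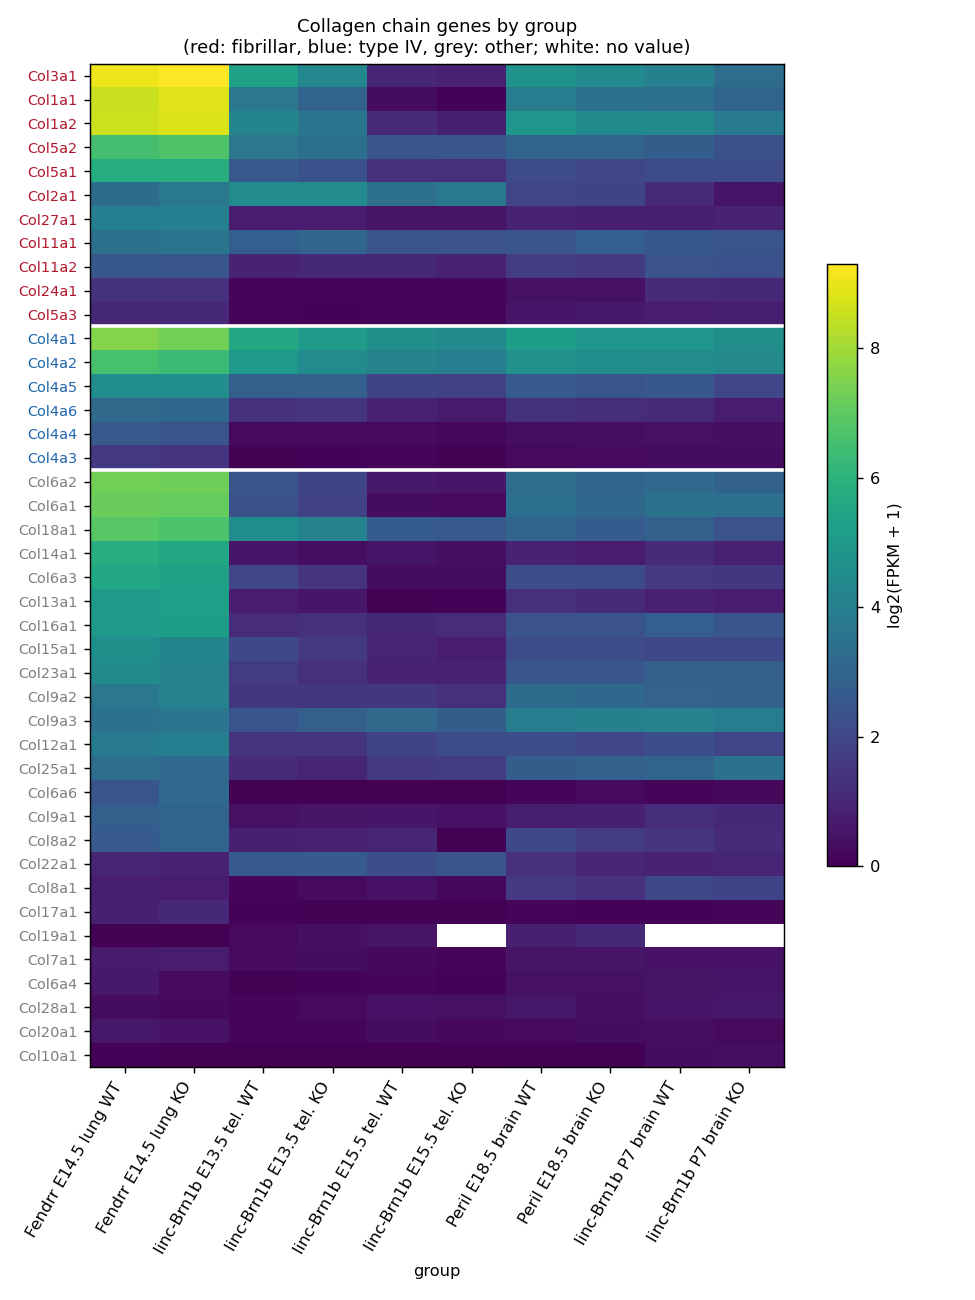
Heat map of log2(FPKM + 1) for the 42 collagen chain genes (rows, ordered within class by their highest level) in the 10 groups (columns, wild type and knockout side by side); red names are fibrillar, blue type IV and grey other chains, and white cells have no value. The 2 lung columns are brightest for Col3a1, Col1a1 and Col1a2, and the 2 E15.5 columns are dark for the same genes and for Col6a1 to Col6a3.

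Col3a1, the homotrimeric fibrillar collagen of compliant tissues, was at 527 and 626 FPKM in wild-type and knockout lung. In wild-type brain it was at 38.5 FPKM at E13.5, 0.997 at E15.5, 26.1 at E18.5 and 16.0 at P7. In the groups labelled knockout the corresponding brain values were 19.3, 0.819, 20.6 and 8.95 FPKM. Both lung values lay above every brain value, and both E15.5 values lay far below all others.

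Col1a1 and Col1a2 encode the chains of type I collagen, the main fibre of skin, bone and airway wall. Col1a1 was at 375 and 461 FPKM in wild-type and knockout lung, and in brain (wild type, then knockout) at 11.9 and 6.81 FPKM at E13.5, 0.244 and 0.0778 at E15.5, 13.96 and 9.96 at E18.5, and 9.70 and 6.96 at P7. Col1a2 was at 385 and 431 FPKM in lung, and in brain at 17.8 and 11.2 at E13.5, 1.23 and 0.753 at E15.5, 28.2 and 21.0 at E18.5, and 21.0 and 13.2 at P7. The type I chains and Col3a1 thus had the same order of groups at the extremes, with lung highest and E15.5 telencephalon lowest. In wild-type lung Col1a1, Col1a2 and Col3a1 exceeded 98.7%, 98.8% and 99.1% of the genes with at least 1 FPKM.

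Type V chains nucleate and limit the width of type I fibrils. Col5a1 was at 52.3 and 53.8 FPKM in wild-type and knockout lung and between 1.37 and 5.23 in brain, with a brain median of 3.45. Col5a2 was at 92.9 and 105 FPKM in lung and between 3.999 and 11.8 in brain, with a median of 6.20. Col27a1, which is known from cartilage, was at 15.2 FPKM in both lung groups and did not exceed 0.885 FPKM in brain. These chains had lung means 14.7 to 22.9 times their brain means.

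Col2a1 and Col11a1, which form the fibrils of cartilage, had another pattern. Col2a1 was at 8.73 and 12.04 FPKM in wild-type and knockout lung, and in brain at 21.3 in both genotypes at E13.5, 9.79 and 12.2 at E15.5, 2.84 and 2.76 at E18.5, and 1.19 and 0.434 at P7. Its highest values were in the youngest telencephalon, and the lung values fell within the brain range. Col11a1 was at 9.71 and 11.2 FPKM in lung and between 4.15 and 7.09 in brain, with a lung mean 2.04 times the brain mean, the lowest such ratio of the fibrillar chains after Col2a1 (1.16). Col11a2, Col5a3 and Col24a1 did not exceed 4.73, 1.12 and 1.56 FPKM in any group.

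Among the type IV chains, Col4a1 and Col4a2, the pair found in nearly all basement membranes, were the most abundant in every group. Col4a1 was at 189 and 159 FPKM in wild-type and knockout lung, and in brain at 48.2 and 33.4 at E13.5, 22.8 and 20.6 at E15.5, 35.4 and 28.6 at E18.5, and 27.4 and 23.0 at P7. Col4a2 was at 95.9 and 79.4 FPKM in lung, and in brain at 30.8 and 21.6 at E13.5, 16.7 and 14.6 at E15.5, 24.9 and 22.0 at E18.5, and 21.6 and 19.8 at P7. Neither chain left the range of 14.6 to 48.2 FPKM in brain, where Col1a1 spanned 0.0778 to 13.96.

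The other type IV chains belong to the networks of specialised membranes. Col4a5 was at 22.8 and 22.7 FPKM in wild-type and knockout lung and between 2.46 and 6.15 in brain, and Col4a6 was at 8.19 and 7.76 in lung and between 0.601 and 1.61 in brain. Col4a3 and Col4a4 were at 1.97 and 1.64 FPKM, and 5.19 and 4.38 FPKM, in lung, and at or below 0.332 FPKM in all brain groups. All 6 type IV genes were thus at 1 FPKM or above in both lung groups, and 3 or 4 of the 6 in each brain group.

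Col6a1 and Col6a2, of type VI, were the most abundant of the other collagens in lung. Col6a1 was at 142 and 137 FPKM in wild-type and knockout lung, and in brain at 3.90 and 2.52 at E13.5, 0.248 and 0.201 at E15.5, 9.45 and 7.74 at E18.5, and 10.3 and 9.57 at P7. Col6a2, its neighbour on chromosome 10, was at 160 and 150 FPKM in lung and between 0.462 and 9.26 in brain, and Col6a3 at 45.7 and 38.8 in lung and between 0.237 and 3.56 in brain. As for type I and III chains, both E15.5 values were the lowest of each of these 3 genes. Col6a6 was at 4.48 and 8.07 FPKM in lung and did not exceed 0.210 in brain.

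Col18a1, the multiplexin from which endostatin is cleaved, was at 116 and 99.3 FPKM in wild-type and knockout lung, and in brain at 21.7 and 16.3 at E13.5, 5.52 and 5.00 at E15.5, 7.23 and 5.48 at E18.5, and 6.37 and 4.18 at P7. Its relative Col15a1 was at 23.7 and 18.46 FPKM in lung and between 0.682 and 3.50 in brain. Col18a1 had its highest brain value in E13.5 wild type, like Col4a1 and Col4a2.

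Among FACIT chains, those of type XII, XIV and XVI ride on type I or related fibrils. Col14a1 was at 54.2 and 46.4 FPKM in lung and did not exceed 1.15 FPKM in brain. Col16a1 was at 31.2 and 35.5 FPKM in lung and between 1.10 and 5.90 in brain, and Col12a1 at 13.4 and 15.1 in lung and between 1.61 and 3.76 in brain. Col14a1 had the largest lung over brain ratio of all 42 genes (81.8), followed by Col6a6 (75.5), Col1a1 (56.1) and Col13a1 (51.7).

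The chains of type IX collagen, which coats the fibrils of cartilage and vitreous, were unequally present in brain. Col9a3 was at 10.4 and 11.5 FPKM in wild-type and knockout lung, and in brain at 4.64 and 6.11 at E13.5, 8.18 and 5.74 at E15.5, 14.1 and 15.53 at E18.5, and 16.3 and 13.8 at P7. Col9a2 was at 11.7 and 16.3 FPKM in lung and between 1.37 and 8.74 in brain, with its higher brain values at E18.5 and P7. Col9a1 was at 6.10 and 6.96 FPKM in lung and between 0.348 and 1.33 in brain. The 3 chains therefore lay between 6.10 and 16.3 FPKM in lung, while in brain Col9a3 was the most abundant in every group. The deposited span of Col9a3 runs past the end of the gene in GENCODE, and whether this raised its values was not tested. Col22a1, a FACIT chain known from tissue junctions, was at 5.06 and 5.30 FPKM at E13.5 and below 1 FPKM in lung.

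Transmembrane collagens are held in the cell membrane by a stretch of the chain that spans it. Col13a1 was at 31.8 and 37.1 FPKM in lung and between 0.0364 and 1.40 in brain. Col23a1 was at 20.04 and 16.2 FPKM in lung and between 0.894 and 6.08 in brain. Col25a1, which is expressed by neurons, was at 8.92 and 8.11 FPKM in lung, and in brain at 1.21 and 0.928 at E13.5, 2.00 and 2.10 at E15.5, 5.68 and 6.12 at E18.5, and 6.94 and 10.04 at P7. The brain values of Col25a1 were thus lowest at E13.5 and highest at P7, and overlapped those of lung.

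Set side by side without a filter on low values, 33 of the 41 collagen genes with a value in all groups were higher in both lung groups than in all 8 brain groups (10 of 11 fibrillar, 6 of 6 type IV and 17 of 24 other chains), and 0 were lower than all of them. With the 26 genes kept at a mean of at least 1 FPKM over the brain groups alone, 21 were higher (7 of 8 fibrillar, 4 of 4 type IV and 10 of 14 other chains), against 30.0% higher and 28.6% lower of all 13778 genes so kept. A mean over all 10 groups kept 32 genes, of which 27 were higher, against 33.0% higher and 27.0% lower of 14260 genes. This last count includes 6 genes that passed through their lung values (Col4a4, Col6a6, Col9a1, Col13a1, Col14a1 and Col27a1, with brain means of 0.0831 to 0.679 FPKM). The 5 genes kept whose lung and brain values overlapped were Col2a1, Col8a1, Col9a3, Col22a1 and Col25a1. The median difference in log2(FPKM + 1) between the mean of lung and that of brain over the members of each class, none filtered, was 3.29 for fibrillar, 2.15 for type IV and 1.71 for other chains. Over the genes kept by their brain mean it was 3.76, 2.15 and 2.18, against 0.05 for all genes so kept, so the order of type IV and other chains depended on the filter and that of fibrillar chains did not. Lung and brain values come from tables normalized separately and from different ages and strains, so these levels carry no test.

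**Figure D2:**
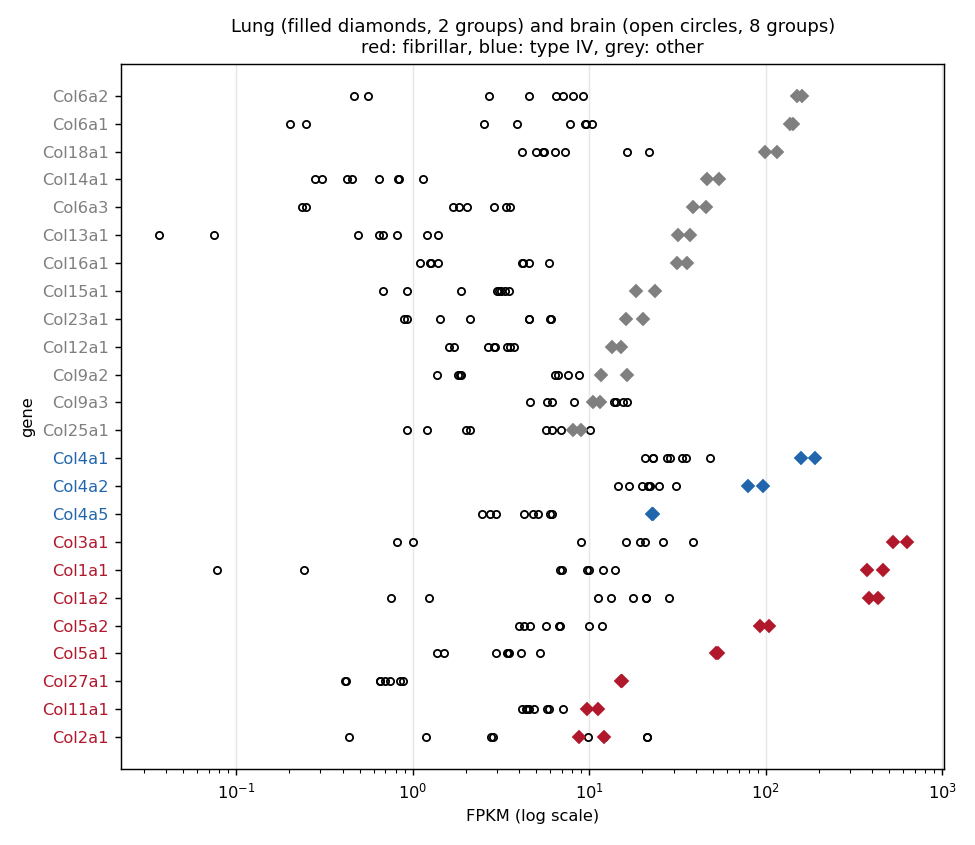
FPKM on a log axis for the 24 collagen genes with at least 10 FPKM in any group, ordered by lung level within class; filled diamonds are the 2 lung groups, open circles the 8 brain groups, and colours the class (red fibrillar, blue type IV, grey other). Lung lies to the right of every brain group except for Col2a1, Col9a3 and Col25a1, and the gap is narrower for Col4a1 and Col4a2 (lung mean 5.81 and 4.08 times brain mean) than for Col1a1 and Col3a1 (56.1 and 35.1 times).

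Genes that modify, fold and cross-link collagen chains were higher in lung as well. Of 34 genes for these steps and for collagen receptors, 28 were kept, 25 were higher in both lung groups than in all brain groups and 1 (Adamts3, a procollagen N-proteinase) was lower. Serpinh1, the chaperone of procollagen, was at 540 and 595 FPKM in wild-type and knockout lung and between 22.3 and 106 in brain. Lox, which oxidises lysines for cross-links, was at 104 and 113 FPKM in lung and between 0.127 and 4.61 in brain. Markers of fibroblasts, meninges and mural cells were higher in lung for 4 of 7 genes, and endothelial markers for 5 of 6, beside the same 33.0%. Their part in the level of the collagens was not tested, and in bulk tissue fewer cells of a type and less RNA per cell cannot be told apart.

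The balance between chains of the same collagen type differed between lung and brain for some types. Type I and type IV trimers are commonly built from 2 α1 chains and 1 α2 chain. Col1a1 over Col1a2 was 0.974 and 1.07 in wild-type and knockout lung and 0.103 to 0.668 in brain, with the lowest values at E15.5. Col4a1 over Col4a2 was 1.97 and 2.00 in lung and 1.16 to 1.57 in brain. Both ratios were higher in lung than in any brain group.

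Of the other type IV pairs, Col4a4 over Col4a3 was 2.63 and 2.68 in lung and 1.24 to 4.42 in brain, where both genes were below 1 FPKM. Col4a5 over Col4a6 was 2.79 and 2.92 in lung and 3.21 to 4.47 in brain, so that it was lower in lung than in any brain group and Col4a5 exceeded its partner in all 10 groups. In type VI, Col6a1 over Col6a2 was 0.891 and 0.914 in lung and 0.436 to 1.48 in brain. In type IX, Col9a3 over Col9a1 was 1.71 and 1.65 in lung and 12.2 to 20.9 in brain, the widest separation of the ratios examined. The deposited span of Col9a3 ended at base 180377396 of chromosome 2, against 180356894 in GENCODE. That of Col6a1 ended at base 76198637 for the Peril strain and 76188789 for linc-Brn1b. The effect of such spans on the ratios was not tested.

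**Figure D3:**
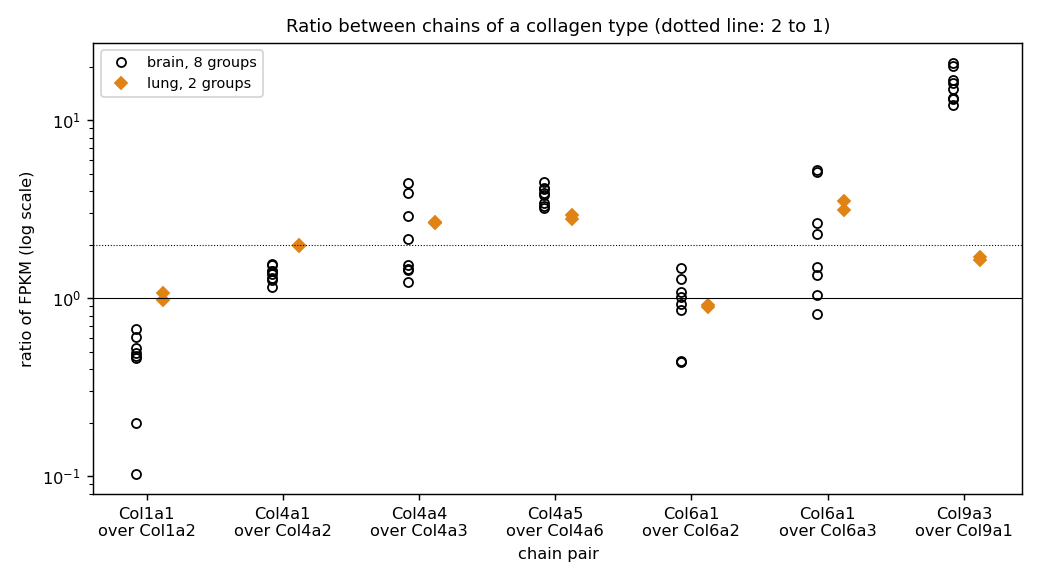
Ratio of the FPKM of 2 chains of the same collagen type (log axis) for 7 chain pairs; open circles are the 8 brain groups, diamonds the 2 lung groups, and the solid and dotted lines mark ratios of 1 and 2. Lung stands above brain for Col1a1 over Col1a2 and Col4a1 over Col4a2, below it for Col4a5 over Col4a6 and Col9a3 over Col9a1, and within it for the others.

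Within the linc-Brn1b strain the collagens of brain differed between the ages sampled in both genotypes. Each age came from other animals, so age, litter and dissection cannot be told apart. From E13.5 to E15.5 telencephalon, 13 of 23 collagen genes kept were past the fold lower in both wild type and knockout and 0 were higher, against 5.18% lower and 4.42% higher of all 13565 genes kept. These were 6 of 7 fibrillar, 2 of 4 type IV and 5 of 12 other chains. Genes were kept by the mean of the 4 groups compared, so a low gene could pass through the age where it was high. Of the lower genes, Col1a1, Col3a1, Col6a1, Col6a2, Col6a3 and Col15a1 were below 1 FPKM in both E15.5 groups. The largest differences in log2(FPKM + 1) were those of Col3a1 (-4.31 in wild type, -3.48 in knockout), Col1a1 (-3.37 and -2.86) and Col1a2 (-3.07 and -2.80). Col6a1 (-1.97 and -1.55) and Col18a1 (-1.80 and -1.53) were lower as well. Type IV differences were smaller, with -1.04 and -0.67 for Col4a1 and -0.91 and -1.05 for Col4a5, and Col4a2 was past the fold in wild type (-0.84) but not in knockout (-0.54). Fibrillar chains thereby went from 44.3% to 24.5% of the summed collagen FPKM in wild type, and type IV chains from 33.6% to 43.8%.

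From E15.5 telencephalon to P7 whole brain, 15 of 24 collagen genes were past the fold higher in both genotypes and 2 were lower, against 21.0% higher and 23.2% lower of all 14128 genes kept. Age and dissection changed together in this comparison and cannot be told apart. The higher genes included Col1a2 (3.30 in wild type, 3.02 in knockout), Col6a1 (3.18 and 3.14), Col1a1 (3.11 and 2.88) and Col3a1 (3.09 and 2.45), the same genes that were lower from E13.5 to E15.5. The lower genes were Col2a1 (-2.30 and -3.20) and Col22a1 (-1.28 and -1.51). Here too a low gene could pass the filter through 1 age. Of the higher genes, Col1a1, Col3a1, Col6a1, Col6a2, Col6a3, Col8a1, Col15a1 and Col23a1 were below 1 FPKM in both E15.5 groups. Col22a1 was below 1 FPKM in both P7 groups. Among type IV chains 0 of 3 kept were past the fold in both genotypes, against 5 of 8 fibrillar and 10 of 13 other chains that were higher. At P7 the other chains made up 41.0% of the summed collagen FPKM in wild type, fibrillar 32.6% and type IV 26.4%.

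Among markers of fibroblasts, meninges and mural cells, some had the same low point. Lum, a proteoglycan bound to fibrils, was at 11.99, 0.129 and 3.66 FPKM in wild type at E13.5, E15.5 and P7 and at 4.80, 0.0360 and 2.08 in knockout. Dcn, another proteoglycan of fibrils, was at 13.2, 1.26 and 22.5 FPKM in wild type and 6.68, 1.32 and 21.1 in knockout. Of the 7 genes of this list, 2 of 6 kept were past the fold lower in both genotypes from E13.5 to E15.5 (Lum and Dcn) and 4 of 5 kept were higher from E15.5 to P7. Rgs5, by contrast, was at 14.02, 20.7 and 39.2 FPKM in wild type and 11.2, 19.9 and 31.4 in knockout, and Pdgfrb stayed between 4.82 and 6.34 FPKM. The summed level of the 7 genes was 54.5, 31.5 and 107 FPKM in wild type and 33.4, 30.6 and 89.8 in knockout. Of 6 endothelial genes, 0 were past the fold in both genotypes from E13.5 to E15.5 and 1 was higher to P7. The part of these cell types in the collagen levels was not tested.

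**Figure D4:**
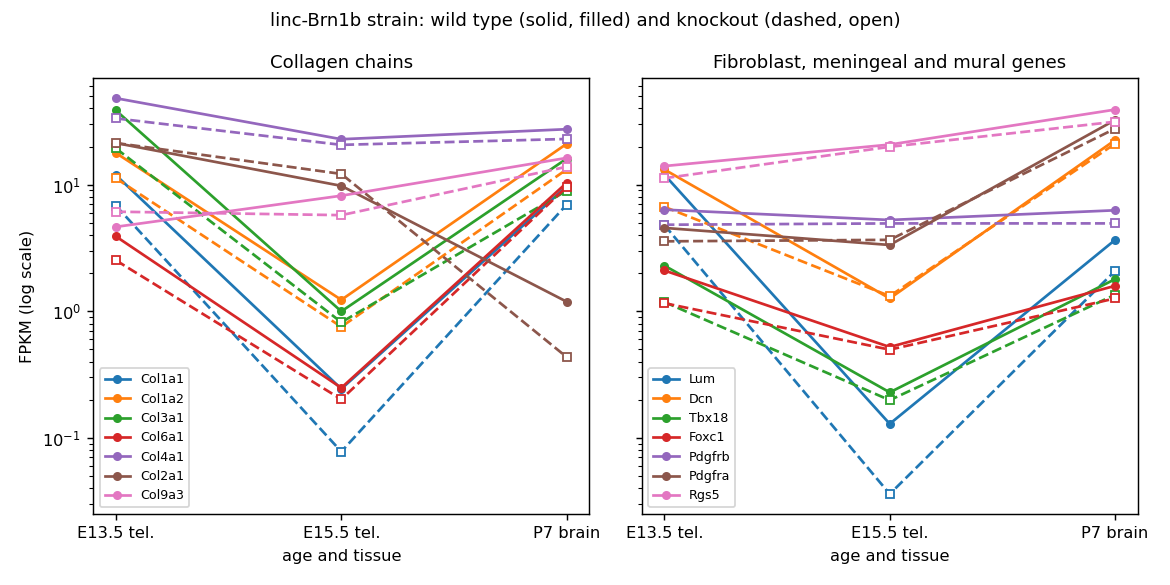
FPKM (log axis) in the linc-Brn1b strain at 3 ages (telencephalon at E13.5 and at E15.5, whole brain at P7) for 7 collagen genes (left) and 7 fibroblast, meningeal and mural genes (right), with wild type as solid lines and filled circles and knockout as dashed lines and open squares. Col1a1, Col1a2, Col3a1 and Col6a1 dip at E15.5, as do Lum, Dcn, Tbx18 and Foxc1, whereas Col4a1 stays between 20.6 and 48.2 FPKM and Col2a1 goes down to 1.19 and 0.434 at P7.

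The comparison of knockout with wild type asked whether loss of a lincRNA moved the collagens. At E13.5, 3 of 25 collagen genes kept were past the fold lower in linc-Brn1b knockout telencephalon and 0 were higher, against 5.27% lower and 1.38% higher of all 14093 genes kept. All 3 were fibrillar, namely Col3a1 (38.5 FPKM, against 19.3 in knockout, a difference in log2(FPKM + 1) of -0.96), Col1a1 (11.9 and 6.81, -0.72) and Col1a2 (17.8 and 11.2, -0.62). The median difference was -0.27 for fibrillar, -0.23 for type IV and -0.19 for other chains, and 0.05 for all genes kept. Col4a1 and Col4a2 differed by -0.52 and -0.49, while the X-linked Col4a5 and Col4a6 differed by 0.03 and 0.04.

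Fibroblast, meningeal, mural and endothelial markers were lower in the same knockout value, where 41.4% of all genes kept were lower. Of 5 neuronal genes 4 were higher and 1 (Tubb3, 869 and 678 FPKM) was lower. All 7 fibroblast, meningeal and mural genes were lower, with Lum (11.99 and 4.80 FPKM), Dcn (13.2 and 6.68) and Tbx18 (2.29 and 1.18) past the fold, and their summed level was 54.5 and 33.4 FPKM. All 6 endothelial genes were lower, with a summed level of 60.1 and 41.0 FPKM. Of 26 genes of collagen synthesis and receptors kept, 3 were past the fold lower, namely Leprel4 of the prolyl 3-hydroxylation complex (3.99 and 1.78 FPKM), the procollagen C-proteinase enhancer Pcolce (2.62 and 1.10) and Lox (3.52 and 1.89). The part of these cells in the lower collagens was not tested.

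At P7, 3 of 25 collagen genes were past the fold lower in linc-Brn1b knockout brain and 0 higher, against 2.13% lower and 1.92% higher of all 14099 genes. They were Col3a1 (16.0 and 8.95 FPKM, -0.78), Col1a2 (21.0 and 13.2, -0.63) and Col2a1 (1.19 and 0.434, -0.61), all fibrillar. In all, 22 of 25 were lower (88%, against 48.2% of all genes kept), with medians of -0.42 for fibrillar, -0.31 for type IV and -0.10 for other chains. Col25a1 had the largest difference upward (6.94 and 10.04 FPKM, 0.48). Serpinh1 (34.5 and 22.3 FPKM, -0.60) and the collagen receptor kinase Ddr2 (4.24 and 2.34, -0.65) were past the fold lower among 26 synthesis and receptor genes kept. All 7 fibroblast, meningeal and mural markers were lower, with Lum past the fold (3.66 and 2.08 FPKM, -0.60), and 5 of 6 endothelial markers were lower, with a summed level of 61.98 and 61.4 FPKM. The neural progenitor genes Pax6 (15.3 and 5.43 FPKM) and Fabp7 (919 and 508) were past the fold lower. Their part was not tested.

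At E15.5, 0 of 25 collagen genes were past the fold in either direction, against 0.213% higher and 0.284% lower of all 14096 genes. The differences ran from -0.45 (Col9a3, 8.18 and 5.74 FPKM) to 0.29 (Col2a1, 9.79 and 12.2 FPKM). The class medians were -0.11 for fibrillar, -0.15 for type IV and -0.06 for other chains, and 18 of 25 genes were lower (72%, against 46.5% of all genes kept). Genes were kept by the mean over all groups of the strain. Col1a1, Col3a1, Col4a6, Col6a1, Col6a2, Col6a3, Col8a1, Col15a1 and Col23a1 were below 1 FPKM in both E15.5 groups. They passed through other ages, and all except Col6a3 were counted as lower. Col8a2, a chain of the hexagonal network of corneal and vessel membranes, was at 0.926 and 0.0250 FPKM but fell under the filter on low values. Among fibroblast, meningeal and mural markers 5 of 7 were lower, with a summed level of 31.5 and 30.6 FPKM. Of 6 endothelial markers 3 were higher and 3 lower, with a summed level of 44.3 and 46.2 FPKM. Ddr2 was past the fold higher (1.81 and 3.28 FPKM, 0.61), the reverse of its difference at P7.

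In E18.5 brain, 0 of 27 collagen genes were past the fold in the libraries labelled Peril knockout, against 0.958% higher and 0.666% lower of all 14405 genes. Here 22 of 27 were lower (81.5%, against 49.2% of all genes kept), with a median of -0.18 against 0.00 for all genes. The largest differences downward were those of Col1a1 (13.96 and 9.96 FPKM, -0.45) and Col1a2 (28.2 and 21.0, -0.41), and the largest upward was that of Col11a1 (4.53 and 5.79, 0.29). Of 27 synthesis and receptor genes 23 were lower, and Ddr2 was past the fold (6.34 and 2.57 FPKM, -1.04). All 6 endothelial markers and 6 of 7 fibroblast, meningeal and mural markers were lower, with summed levels of 82.2 and 69.2 FPKM and of 85.1 and 67.5 FPKM, and the pericyte gene Rgs5 was past the fold (26.6 and 14.97 FPKM). Their part was not tested.

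Read together, 11 of the 25 collagen genes kept in all 4 brain comparisons were lower in the group labelled knockout each time and 0 were higher each time, against 5.65% and 9.42% of 13233 genes. The 4 comparisons shared no libraries, but 3 came from the same strain, and this count was chosen after the values were seen. The genes were Col1a1, Col1a2, Col3a1 and Col5a1 of the 8 fibrillar chains, Col4a1 and Col4a2 of the 4 type IV chains, and Col6a1, Col6a2, Col9a2, Col18a1 and Col23a1 of the 13 others. For Col23a1 in E18.5 brain the values were 4.55 FPKM in both groups. Col9a2 at E13.5 (1.87 and 1.85 FPKM) and Col5a1 at P7 (3.48 and 3.42) were also nearly equal. At E15.5, Col1a1, Col3a1, Col6a1 and Col6a2 were below 1 FPKM in both groups. Without the Peril comparison 11 of 25 were lower in all of the other 3, against 8.53% of all genes, and with the labels of the Peril groups exchanged 0 were lower in all 4, against 2.75%. Most of these differences lay below 1.5-fold.

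In Fendrr lung, 1 of 33 collagen genes was past the fold higher in knockout and 0 were lower, against 1.41% higher and 0.73% lower of all 13968 genes. It was Col6a6, a type VI chain (4.48 and 8.07 FPKM, 0.73). Fibrillar chains were higher in 8 of 11 cases with a median of 0.16, including Col2a1 (8.73 and 12.04 FPKM, 0.42), Col1a1 (375 and 461, 0.30), Col3a1 (527 and 626, 0.25) and Col1a2 (385 and 431, 0.16). Type IV chains were lower in 6 of 6 cases with a median of -0.19, including Col4a1 (189 and 159, -0.25) and Col4a2 (95.9 and 79.4, -0.27). Of all genes kept, 48.6% were lower. Some counted differences were near 0, such as those of Col4a5 (22.8 and 22.7 FPKM, lower) and Col5a3 (1.114 and 1.115, higher). Of the other chains 8 were higher and 8 lower. The central 95% of all genes lay between -0.37 and 0.41, so that besides Col6a6, Col2a1 and the fibril-associated Col9a2 (11.7 and 16.3 FPKM, 0.44), both known from cartilage, lay just outside it.

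Marker genes also differed between the lung groups. Of 6 endothelial markers 5 were lower in knockout, with a summed level of 318 and 267 FPKM. Lum (40.2 and 61.3 FPKM, 0.60) and Tbx18 (1.65 and 3.06, 0.61) were past the fold higher among the fibroblast, meningeal and mural genes. Of the 6 genes of this list kept, 3 were higher (with Dcn at 135 and 192 FPKM) and 3 lower, namely Pdgfrb (35.2 and 27.5), Pdgfra (35.02 and 32.7) and Rgs5 (11.3 and 9.25). The sum over all 7 was 259 and 327 FPKM. All 6 cardiac muscle genes were past the fold higher, among them Myl7 (147 and 422 FPKM) and Nppa (1.77 and 54.2). Of 7 cartilage genes 3 were kept (Hapln1, Sox9 and Lect1), all higher in knockout and 0 past the fold, with a summed level of the 7 of 31.1 and 33.5 FPKM. Acan was at 0.216 and 0.493 FPKM, and Matn1 and Comp stayed at or below 0.154. Of 28 synthesis and receptor genes 0 were past the fold, with Serpinh1 at 540 and 595 FPKM. The part of these cells in the collagen values was not tested.

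**Figure D5:**
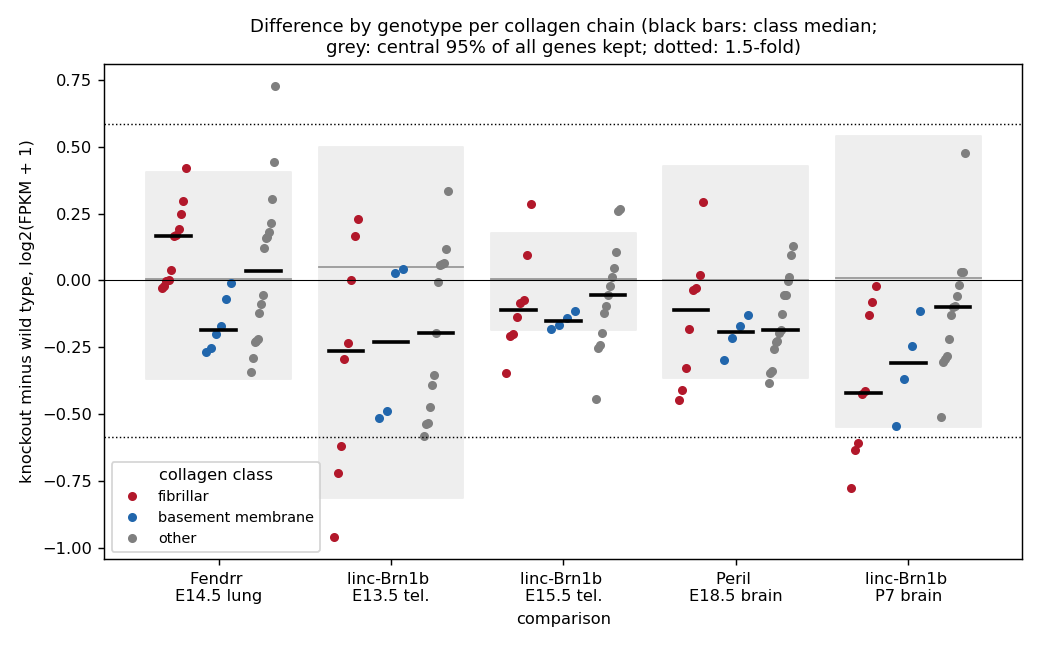
Difference in log2(FPKM + 1), knockout minus wild type, for each collagen gene kept in the 5 comparisons, coloured by class, with black bars for class medians, grey boxes for the central 95% of all genes kept and dotted lines at 1.5-fold. In lung the fibrillar median is 0.16 and the type IV median -0.19, and in the 4 brain comparisons the medians of all 3 classes are below 0. Col3a1 is the lowest fibrillar point at E13.5 and at P7.

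The X-linked type IV chains can be followed across the comparisons beside the difference in sex. Col4a5 and Col4a6 differed by -0.55 and -0.37 at P7, -0.11 and -0.17 at E15.5 and -0.22 and -0.13 at E18.5, where Y-linked genes were present in the group labelled knockout. They differed by 0.03 and 0.04 at E13.5 and -0.01 and -0.07 in lung, where Y-linked genes were present in wild type. The autosomal pair Col4a1 and Col4a2 was lower in the group labelled knockout in all 5 comparisons. At P7, 22 of the 25 collagen genes kept were lower in knockout, among them the autosomal Col18a1 (-0.51). Whether sex had a part in these differences was not tested.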

How the data were processed

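RNA of 21 libraries from 10 groups was sequenced by the authors. Paired-end reads were aligned by TopHat2 (genome mm9), transcripts were assembled by Cufflinks (version 2.0.2 in the submitters' processing notes) and expression was estimated by Cuffdiff2. The 3 deposited tables hold 1 FPKM value per group, pooled by the authors over its libraries and scaled within a table. They also hold the authors' fold changes, test statistics, p-values and q-values, which were not used, and a status flag. The deposited status flag (another kind of column) was used to treat values of Col19a1 at E15.5 (knockout) and P7 (both genotypes) as missing, since too many reads had stopped its estimate. Without values per library, 0 columns of per-sample values were used, the depth is unknown, and no SD or interval could be computed and no test was run here.

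Differences are of log2(FPKM + 1). Genes were kept at a mean of at least 1 FPKM over the groups of a table, over the 4 groups of an age comparison, or, for lung and brain, over all 10 groups among 33692 genes with exactly 1 row of their symbol in each table. Values in all groups, or in lung with the range in brain, are given for members with at least 10 FPKM in any group, values of a comparison for members past the fold, and other members by ranges. Other genes are those of lists of collagen synthesis and receptors and of cell type markers, of which 1 list is not reported here as a whole. Members, classes and lists were chosen with earlier results of these data known. Members outside the naming rule (such as Col4a3, Col4a6, Col9a1 and Col22a1) were chosen after their values were seen, as was linc-Atp11b-4. Col6a5, annotated in GENCODE, was not analysed here. Coding sequences are from GENCODE vM1, with the transcript named where printed. Counting of genes past the fold was tested on simulated data. Python 3.11.15, numpy 2.4.6 and pandas 2.3.3 were used.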

Additional observations from a re-analysis of the deposited data

How the results depend on the processing

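The counts past the fold by genotype and by age, the lung and brain count, the class medians of lung over brain and the count lower in all 4 brain comparisons were recomputed under other settings. Of these values 39 stayed within 1.5 times the main count or close to the main median and 12 did not. Other counts, lists and ratios were not recomputed. With a pseudocount of 0.1 FPKM, the genes past the fold numbered 7 (E13.5), 3 (E15.5) and 6 (P7), all lower in knockout, and the median lung over brain difference was 3.95 for fibrillar and 2.53 for other chains. With a fold of 2, 0 were past it in lung, in E13.5 telencephalon and in P7 brain, and 8 were lower from E13.5 to E15.5. Centring on the median of all genes gave 5 lower at E13.5, and leaving out the filter on low values gave 1 at E15.5. The settings without telencephalon (28 genes higher in lung) and with a filter on the brain mean (21), and those for the 4 brain comparisons, were chosen after seeing the data. Without E15.5, 12 genes were lower in knockout in every brain comparison (16.4% of all genes), and centred differences gave 13 (7.29%). Without Peril there were 11 (8.53%), and with the labels of the Peril groups exchanged 0 (2.75%). No paired analysis was possible because the tables hold no value per library, and leaving out each replicate was not run for the same reason.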
